A study of Mus musculus with 3 samples.

Results

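Molecular chaperones and protein folding enzymes were followed in medial edge epithelium from palates of mouse embryos, the epithelium at the facing edges of the palatal shelves, from which the midline seam forms. The genes were chosen by symbol, as heat shock protein, Dnaj, Cct and Pdia genes together with Calr, Canx, Hsf1, Xbp1, Ddit3 and Cdc37, on probe sets annotated to a single gene. This gave 63 of 8251 genes and 88 of 10833 probe sets, and no single-gene probe set matched Hsf1, the heat shock transcription factor. The tissue came from CF-1 mouse embryos at embryonic day 13.5 and was freed with Dispase II. The 3 arrays held unfused epithelium for which the labels describe no culture (0 h), fused epithelium from shelves kept together in culture until 12 h after contact, and fused epithelium at 24 h, labelled as undergoing epithelial-mesenchymal transformation. The labels name no genotype beyond the strain and no added agent, and the sources used here do not give the number of embryos behind a sample. Each time point had 1 array, so the values below come without replicates, errors or p-values, and the effects of fusion, time and culture cannot be told apart.

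Chaperones keep unfolded proteins from aggregating. In the cytosol, Hsp70 proteins bind exposed hydrophobic stretches in cycles of ATP hydrolysis that J-domain proteins start and nucleotide exchange factors of the Hsp110 family end, Hsp90 matures kinases and receptors, and the CCT ring folds actin and tubulin. The endoplasmic reticulum (ER) has its own Hsp70, Hsp90 and J-domain proteins, the lectin chaperones calnexin and calreticulin, and protein disulfide isomerases that form disulfide bonds in secreted matrix and junction proteins. Cytosolic damage acts on many of these genes through heat shock elements, and unfolded protein in the ER acts through ER stress response elements and the factors Atf6 and Xbp1.

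Promoters are shown here because these elements define the branches of the response. RefSeq promoters of 300 bases, 250 before and 50 after the start site (build GRCm38.p6), were found for 55 of the 63 genes. The ER stress response element, CCAAT and CCACG with any 9 bases between them, searched on both strands, was present in 6 of these 55 genes (10.9%), against 37 of 27025 genes in the whole table (0.137%). All 6 were genes of the ER. The stretches around the matches run 5′ to 3′ along the gene's own strand, with the fixed letters of each match in capitals; on the opposite strand the element reads CGTGG then ATTGG. All lie upstream of the start site.
Hspa5, chr2:34771995-34772073, plus strand: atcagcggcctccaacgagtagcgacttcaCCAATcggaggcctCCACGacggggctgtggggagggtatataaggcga
Hsp90b1, chr10:86705503-86705686, minus strand: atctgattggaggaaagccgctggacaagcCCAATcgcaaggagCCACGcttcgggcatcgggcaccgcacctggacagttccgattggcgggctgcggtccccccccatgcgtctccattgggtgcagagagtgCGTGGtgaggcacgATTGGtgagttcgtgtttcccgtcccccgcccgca
Canx, chr11:50325770-50325848, minus strand: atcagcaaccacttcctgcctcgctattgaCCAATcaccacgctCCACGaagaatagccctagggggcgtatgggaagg
Calr, chr8:84847045-84847123, minus strand: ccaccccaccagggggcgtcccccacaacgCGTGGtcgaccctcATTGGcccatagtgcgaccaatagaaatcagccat
Dnajc3, chr14:118937797-118937875, plus strand: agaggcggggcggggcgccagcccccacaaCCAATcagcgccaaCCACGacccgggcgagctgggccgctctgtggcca
Pdia6, chr12:17266461-17266539, plus strand: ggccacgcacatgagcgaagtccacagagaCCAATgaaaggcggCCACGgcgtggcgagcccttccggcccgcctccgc
Hsp90b1 held 2 matches and the others 1. The unfolded protein response element TGACGTGG matched 0 of the 55 genes and 193 of 27025 in the table (0.714%).

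The core of the heat shock element, GAANNTTC or TTCNNGAA, which each read the same on both strands and can overlap each other, was present in 15 of 55 genes (27.3%) and in 4587 of 27025 genes in the table (17.0%). Stretches are shown for the stress-inducible Hsp70 genes, which had among the largest differences at 24 h, and for the mitochondrial chaperonin genes, whose windows share 285 bases because they start back to back.
Hspa1a, chr17:34972223-34972290, minus strand: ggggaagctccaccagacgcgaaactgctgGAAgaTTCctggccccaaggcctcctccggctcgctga
Hspa1b, chr17:34959305-34959372, minus strand: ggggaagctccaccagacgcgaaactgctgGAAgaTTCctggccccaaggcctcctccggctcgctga
Hspe1, chr1:55088029-55088106, plus strand: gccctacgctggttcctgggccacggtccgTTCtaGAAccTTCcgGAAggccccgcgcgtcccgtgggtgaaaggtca
The Hspa1a and Hspa1b stretches are identical, and 296 of their 300 promoter bases agree. The Hspe1 stretch holds 3 overlapping matches that also lie upstream of Hspd1 on the other strand. A match is a run of letters and was not tested as a site of binding.

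**Figure D1:**
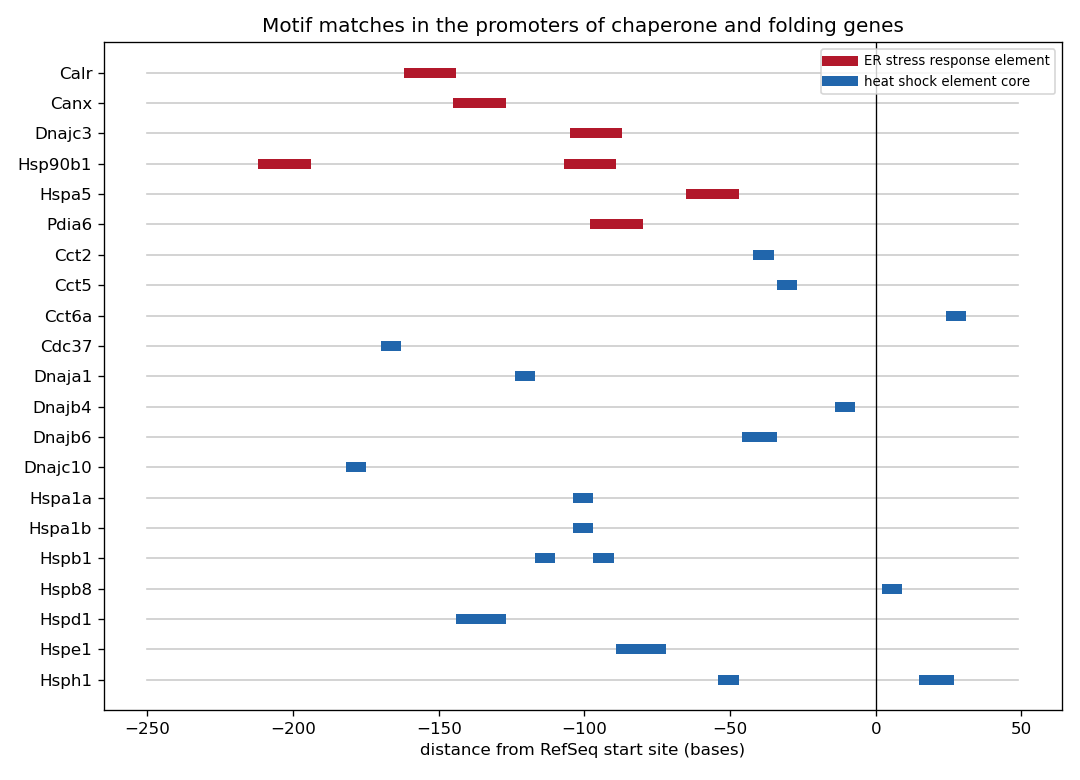
Positions of motif matches, in bases from the RefSeq start site, in the promoters of the 21 genes with a match; where a gene has several start sites, the window with the lowest coordinate among those with a match is drawn. Red bars are ER stress response elements, blue bars heat shock element cores, and all 7 matches to the ER element lie before the start site.

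Signals are linear intensities scaled to a common trimmed mean, and a signal at or below 13.5, the pooled 40th percentile, counts as being at the floor. Of the 63 genes, each represented by its brightest probe set, 58, 51 and 54 exceeded the floor on the 0, 12 and 24 h arrays; 49 were above it on all arrays and 5 on none. Those 5 were Calr, an ER lectin chaperone, the small heat shock protein Hspb1, the Hsp70 gene Hspa2, and Dnajb5 and Dnajb8. A difference against an array at the floor is given as at least N-fold. The median signal of the 63 genes was 105, 94.6 and 96.8 at 0, 12 and 24 h, and that of all genes 37.7, 27.3 and 34.3. Shares of the 63 and of all genes below are thus set side by side at unlike signal levels. There were no replicates, so the log2 ratios of different probe sets of 1 gene, above the floor on both arrays, were compared. Over all genes, single probe sets scattered around the mean of their gene with an SD of 1.24 at 12 h over 0 h. The SD was 0.82 between the later arrays and 1.07 at 24 h over 0 h. Probe sets of a gene share the same samples and arrays, so this spread does not measure variation between samples and does not replace replicates. Among the 63 genes the SDs were 1.45, 0.86 and 1.38 in the same order, from 9, 9 and 10 genes with several measured sets. A 2-fold difference, the size used for counting, is a log2 ratio of 1 and so lies close to or within these spreads.

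Several measures of the whole arrays moved with time. The 3′ to 5′ signal ratio of the Gapdh control took the values 0.828, 14.9 and 12.6 on the 0, 12 and 24 h arrays, and that of Actb 1.02, 11.9 and 2.97. Of the epithelial markers, 9, 7 and 9 of 11 exceeded the floor at the successive times, with Krt5 and Krt14 at the floor throughout. The 11 markers summed to 857, 1547 and 1474, or to 700, 808 and 1063 without Dsp. At both later times 2 of the 11 were higher and 2 lower than at 0 h. Markers of palate mesenchyme were present in all samples (14, 12 and 13 of 14 above the floor, summed signals of 5857, 11100.1 and 11041), of which 6 were higher and 4 lower at both later times than at 0 h. Erythroid markers summed to 6526, 1628 and 1564 (8, 7 and 7 of 9 above the floor), and leukocyte markers to 168, 610.3 and 426 (4, 5 and 5 of 9), with Ptprc, Itgam, Adgre1 and Lyz2 at the floor throughout; without Ctss the other 8 summed to 126, 102 and 148. Endothelial markers summed to 411, 654 and 652 (7, 8 and 7 of 9), or 359, 391 and 492 without Cdh5. Neural markers summed to 606, 159 and 339 (5, 3 and 3 of 7), or 147, 84.1 and 137 without Tubb3. Muscle markers summed to 674, 895 and 749 (6, 8 and 9 of 9), or 578, 309.9 and 345 without Tnnt1. The part of RNA quality and of these cells in the results was not tested, and fewer cells of a type cannot be told apart from less RNA per cell.

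**Figure D2:**
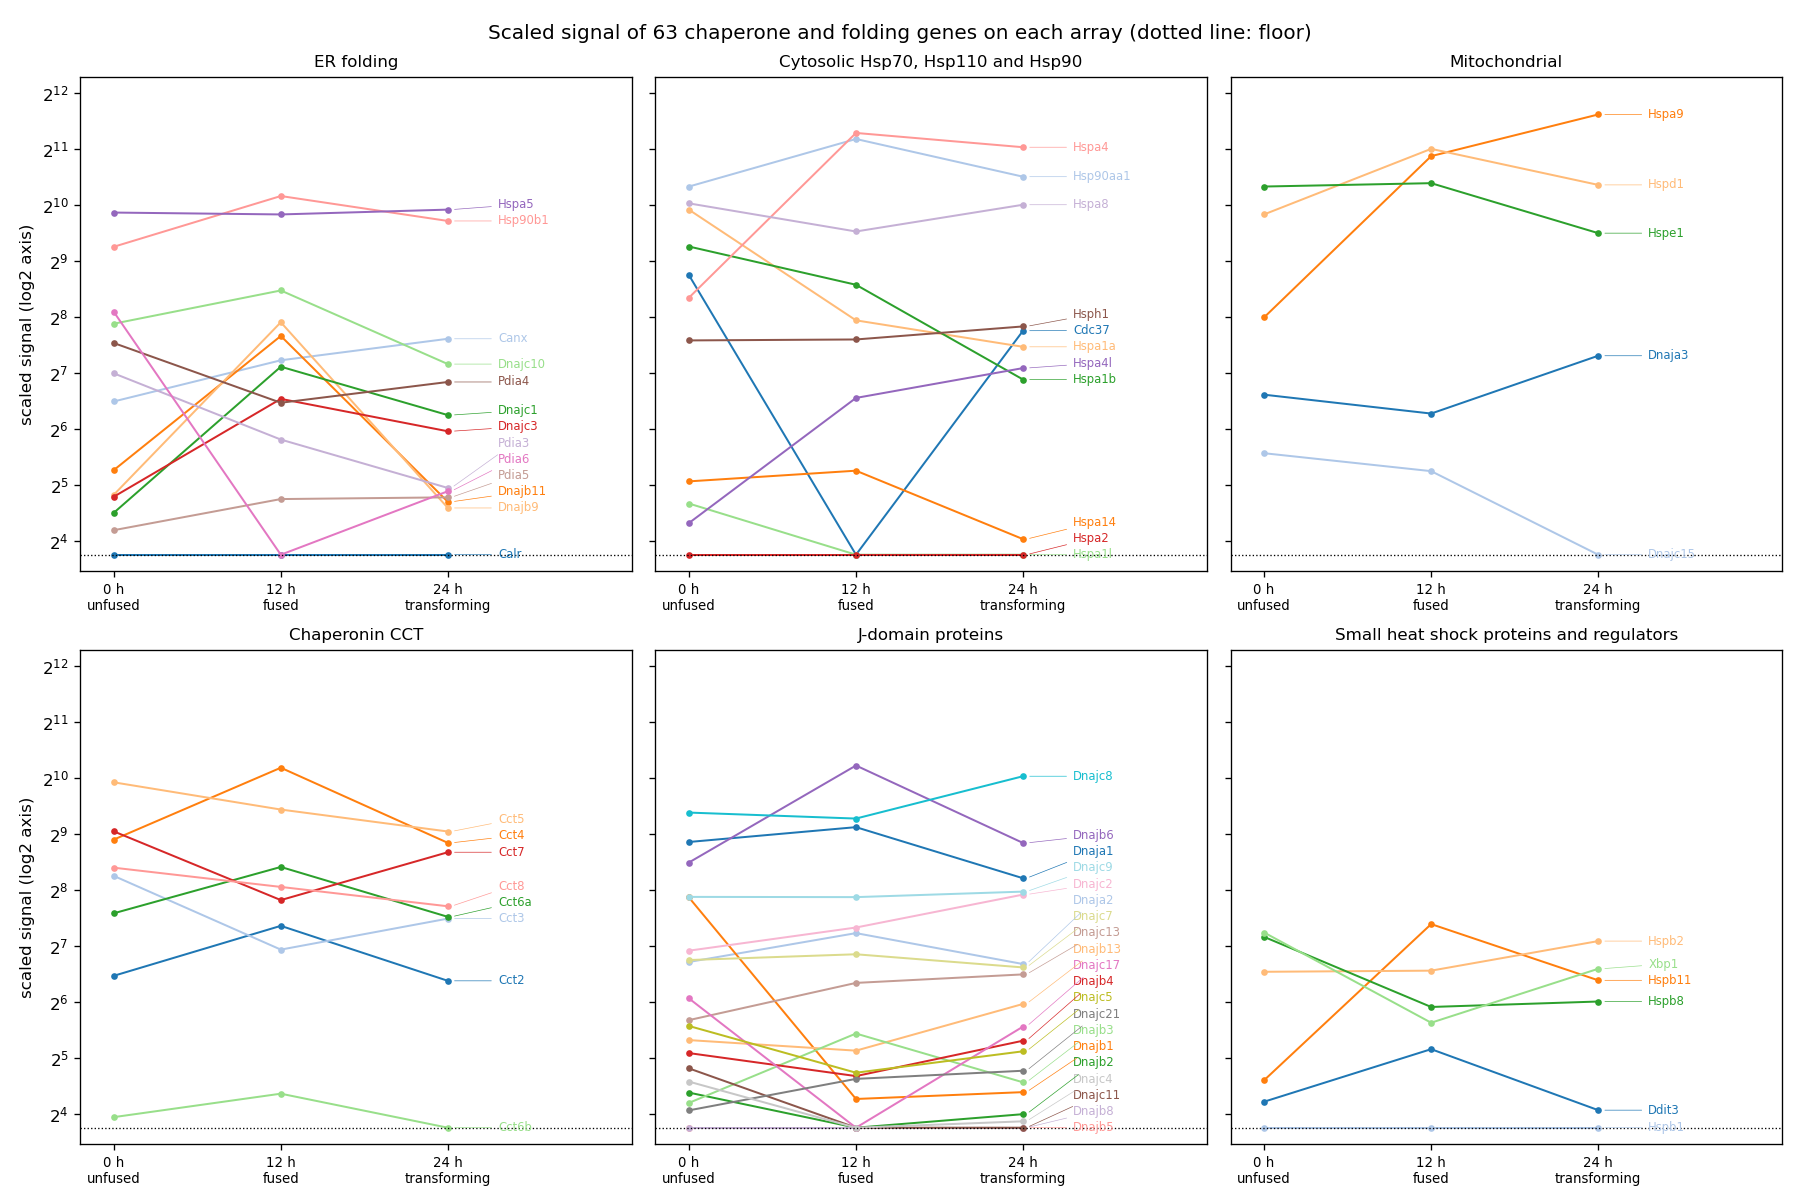
Scaled signal (log2 axis) of each of the 63 genes on the arrays at 0, 12 and 24 h, in panels by role; each line is 1 gene, values at or below the floor are drawn on the dotted line, and each point is 1 array. The ER J-domain genes Dnajb9 and Dnajb11 peak at 12 h, whereas Hspa1a, Hspa1b and Pdia3 are lower at each later time.

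Counted together for fused tissue at 12 h against unfused tissue at 0 h, 12 of 58 genes with a ratio were higher by 2-fold or more and 12 lower by 2-fold or more, 7 of the ratios being bounds. That is 20.7% in each direction, beside 17.7% higher and 27.3% lower among all 6379 genes with a ratio. The median log2 ratio was 0.04, compared with -0.21 for all genes. Beyond a log2 ratio of 2 probe set SDs, with the SD taken over all genes, lay 8 of the 58 genes (13.8%) and 8.42% of all genes. The 8 were Dnajb9, Dnajc1, Hspa4, Hspa9 and Hspb11 on the higher side and Cdc37, Dnajb1 and Pdia6 on the lower. The balance depended on the scaling, with 9 higher and 23 lower for values as deposited and 18 higher and 7 lower after median centring. Of 7 genes that were 2-fold different and had another set measured or bounded, all other sets had the same direction in 3. Of those, Hspb8 did so by a bound of -0.06 and Hspd1 by 0.09. Some other set was 2-fold the same way in 4 of the 7 and 2-fold the opposite way in 1.

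For the transforming seam at 24 h against fused tissue at 12 h, 4 of 56 genes were higher by 2-fold or more and 10 lower by 2-fold or more. These shares of 7.14% and 17.9% stand beside 18.8% higher and 12% lower among all 6141 genes with a ratio. Bounds made up 5 upward and 2 downward ratios of the 56, and 736 upward and 399 downward of the 6141. The median was -0.10, with 0.17 for all genes. The 4 higher genes were Cdc37, Pdia6, Dnajc17 and Dnaja3, the first 3 of them bounds against the floor at 12 h. The 10 lower genes included Dnajb9, Dnajb11 and Dnajc10 of the ER, Hspa1b, Hspa14, Cct4 and Ddit3. Values as deposited gave 2 higher and 17 lower, and median centring 3 higher and 17 lower.

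For the transforming seam at 24 h against unfused tissue at 0 h, 8 of 58 genes were higher by 2-fold or more and 9 lower by 2-fold or more. These shares of 13.8% and 15.5% were close to the 14.5% and 17.7% among all 6392 genes with a ratio, and the medians were -0.11 and, for all genes, -0.08. The higher genes were Hspa9, Hspa4l, Hspa4, Hspb11, Dnajc1, Dnajc3, Canx and Dnajc2. The lower ones were Dnajb1, Pdia6, Hspa1a, Hspa1b, Pdia3, Dnajc15, Hspb8, Dnajc11 and Hspa14. With values as deposited 3 were higher and 33 lower, where 4.50% and 49.3% of all genes were. With the scaled values, 7 of 58 genes (12.1%) lay beyond 2 probe set SDs, beside 6.32% of all genes. The 7 were Dnajb1, Hspa1a, Hspa1b, Hspa4, Hspa4l, Hspa9 and Pdia6. That SD was taken over all genes, and by the larger SD of the 63 genes (1.38) Hspa1a, Hspa1b and Hspa4 would lie within 2 SDs. The comparisons share arrays, and so a deviation of the 12 h array enters both steps with opposite signs. With that in view, 5 of 63 genes (7.94%) were 2-fold higher at 12 h relative to 0 h and then 2-fold lower at 24 h than at 12 h, namely Dnajb9, Dnajb11, Dnajb6, Cct4 and Hspb11, where 5.08% of all genes did so. The opposite course was that of Cdc37, Pdia6 and Dnajc17 (4.76%), against 9.26% of all genes. No gene of the 63 was 2-fold higher or 2-fold lower at both steps; of all genes 0.448% and 0.218% were. At both later times 6 genes (9.52%) were 2-fold higher than at 0 h, namely Dnajc1, Dnajc3, Hspa4, Hspa4l, Hspa9 and Hspb11, beside 7.25% of all genes. Another 6 (9.52%) were 2-fold lower at both, namely Dnajb1, Dnajc11, Hspa1a, Hspb8, Pdia3 and Pdia6, beside 9.73% of all genes. Both shares are near those of all genes.

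The ER group had 13 genes, and its J-domain proteins, which bring substrates to the ER Hsp70, had their highest signal at 12 h. Of 12 ER genes with a ratio, 4 (33.3%) were 2-fold higher and 3 (25%) 2-fold lower at 12 h over 0 h (median 0.66). Among all genes 17.7% were higher and 27.3% lower. At 24 h over 12 h the counts were 1 (8.33%) and 3 (25%, median -0.51), beside 18.8% and 12% of all genes. At 24 h over 0 h they were 3 (25%) and 2 (16.7%, median -0.09), beside 14.5% and 17.7% of all genes. Dnajb9, which serves the disposal of misfolded proteins, had signals of 28.4, 241 and 24.1 on the 0, 12 and 24 h arrays. Dnajb11, a soluble co-chaperone of the ER Hsp70, had signals of 38.5, 203 and 26.03. Both were high on the 12 h array alone: Dnajb9 was 8.47-fold and Dnajb11 5.27-fold higher at 12 h relative to 0 h, and 9.97-fold and 7.80-fold lower at 24 h than at 12 h. The second probe set of Dnajb9 stayed at or below the floor on all arrays.

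Dnajc1, a membrane-bound J-domain protein, had signals of 22.7, 139 and 76.2 at 0, 12 and 24 h, and was 6.11-fold higher at 12 h and 3.35-fold higher at 24 h than at 0 h. Dnajc3, an inhibitor of the stress kinase of the ER, had signals of 27.7, 93.2 and 62.4, and was 3.36-fold and 2.25-fold higher than at 0 h. It had the most measured probe sets of these genes, and all 3 gave log2 ratios of 1.75, 1.62 and 2.58 for 12 h over 0 h and of 1.17, 0.92 and 1.14 for 24 h over 0 h. The sets that gave 1.62 and 2.58 at 12 h over 0 h carry suffixes for possible cross-hybridization. The remaining set was at the floor. Dnajc10, a J-domain protein that also reduces disulfides, had signals of 236, 357 and 143, so that it was 1.51-fold higher at 12 h relative to 0 h and 2.49-fold lower at 24 h than at 12 h.

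The disulfide isomerases did not share that course. Pdia3, which works on glycoproteins with the lectin chaperones, had signals of 128, 56.3 and 30.9 and was 2.27-fold lower at 12 h and 4.13-fold lower at 24 h than at 0 h. Pdia4 had signals of 186, 88.8 and 115 and was 2.10-fold lower at 12 h than at 0 h. Both were lower on each cultured array than at 0 h. Pdia6 had signals of 274, 6.00 (at the floor) and 29.7, hence at least 20.2-fold lower at 12 h relative to 0 h and 9.22-fold lower at 24 h than at 0 h. Another set, which carries a suffix for possible cross-hybridization, had the same course (220.3, 2.18 and 63.7). The dimmest set, like the brightest without such a suffix, ran 38.5, 75.9 and 49.1, with a log2 ratio of 0.98 at 12 h over 0 h. Pdia5 had signals of 18.3, 26.9 and 27.5.

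Hspa5, the ER Hsp70 that is the usual readout of unfolded protein in that compartment, had signals of 936, 914 and 970.3, with log2 ratios of -0.03 at 12 h over 0 h, 0.09 at 24 h over 12 h and 0.05 at 24 h over 0 h. Hsp90b1, the ER Hsp90, had signals of 612, 1148 and 843 and was 1.87-fold higher at 12 h than at 0 h. Canx, the membrane-bound lectin chaperone calnexin, had signals of 90.2, 150.2 and 196 and was 2.17-fold higher at 24 h than at 0 h by its brightest set, where its other set gave a log2 ratio of -0.17 and the mean over both sets 0.47. The signs of all Hspa5 ratios depended on the scaling, which placed 12 h over 0 h between -0.72 and 0.28. The genes with an ER stress response element in the window thus spanned log2 ratios of -4.34 (Pdia6, a bound), -0.03 (Hspa5), 0.74 (Canx), 0.91 (Hsp90b1) and 1.75 (Dnajc3) for 12 h over 0 h, with Calr at the floor, while Dnajb9, Dnajb11 and Dnajc1 had no match to it in their windows.

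Neither measured regulator differed by as much as 2 probe set SDs. Xbp1, whose spliced message encodes a transcription factor of ER genes, had signals of 152, 49.6 and 96.8 and was 3.06-fold lower at 12 h than at 0 h; spliced and unspliced message were not separated here. Ddit3, a stress-induced factor linked to cell death, had signals of 18.7, 35.8 and 16.8, close to the floor, and was 1.92-fold higher at 12 h relative to 0 h and 2.13-fold lower at 24 h than at 12 h.

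Other genes of the ER, taken from lists of known members, had other courses. Of 12 folding and translocation genes outside the symbol rule with a ratio, 3 were higher by 2-fold or more and 7 lower by 2-fold or more at 12 h than at 0 h, with a median log2 ratio of -1.65; the shares of 25% and 58.3% stand beside 17.7% and 27.3% of all genes. Serpinh1, the collagen chaperone of the ER, was 7.39-fold lower and the prolyl isomerase Ppib 5.11-fold lower, whereas Erp44, a thioredoxin-family chaperone, was 4.80-fold higher and Ero1a, the oxidase that recharges disulfide isomerases, 3.99-fold higher. At 24 h against 12 h, 6 of 12 (50%) were higher by 2-fold or more and 1 (8.33%) lower, beside 18.8% and 12% of all genes. Of 15 genes of the unfolded protein response and ER-associated degradation, 3 (20%) were higher and 5 (33.3%) lower at 12 h than at 0 h by 2-fold or more, near the 17.7% and 27.3% of all genes. Atf4, a stress-induced transcription factor, was 2.83-fold lower and Herpud1, an ER membrane protein of that response, 2.71-fold lower at 12 h, while Derl1, a degradation channel component, was 2.27-fold higher. At 24 h against 12 h, 5 of 16 in that list were higher and 0 lower by 2-fold (31.3% and 0%, beside 18.8% and 12% of all genes), and at 24 h against 0 h 4 of 14 were higher and 3 lower (28.6% and 21.4%, beside 14.5% and 17.7%).

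**Figure D3:**
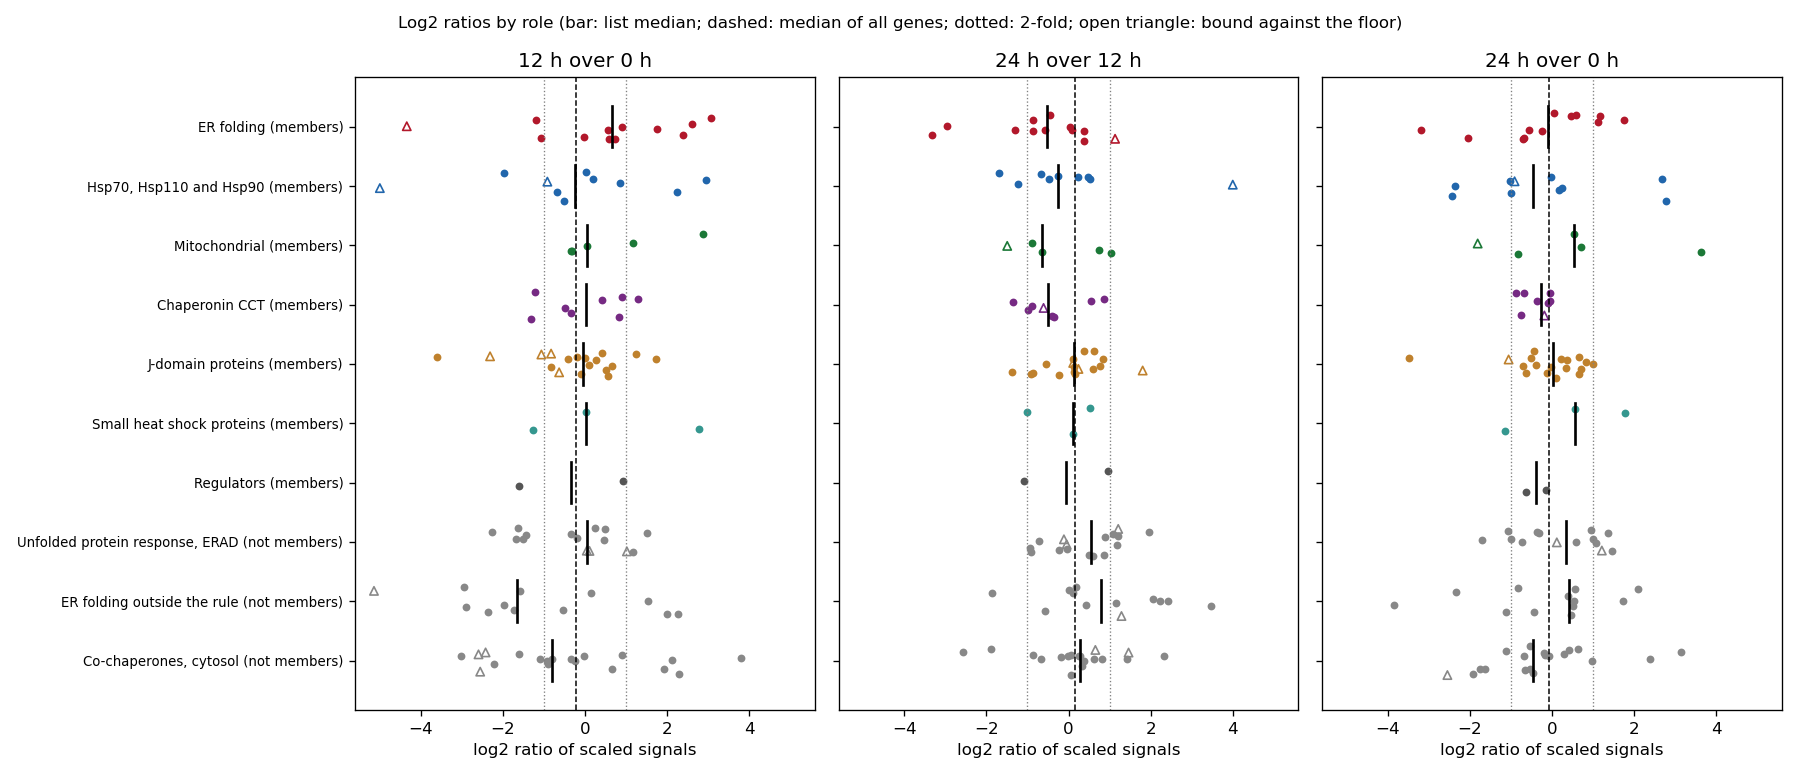
Log2 ratio of scaled signals for each gene (points; open triangles are bounds against the floor) by role, in the 3 comparisons, with list medians as black bars, the median of all genes as a dashed line and 2-fold as dotted lines. ER genes of the symbol rule have a median of 0.66 at 12 h over 0 h, against -1.65 for ER folding genes outside it.

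In the cytosol, the stress-inducible Hsp70 genes and their J-domain partner were highest on the 0 h array. Of 10 genes of the cytosolic group with a ratio, 2 (20%) were 2-fold higher and 2 (20%) 2-fold lower at 12 h over 0 h (median -0.24). Among all genes 17.7% were higher and 27.3% lower. At 24 h over 0 h the counts were 2 (20%) and 3 (30%, median -0.47), beside 14.5% and 17.7% of all genes. Hspa1a had signals of 969, 246 and 177, and was 3.94-fold lower at 12 h and 5.46-fold lower at 24 h than at 0 h. Hspa1b had signals of 614, 383 and 118, and was 1.61-fold and 5.19-fold lower. The 2 genes are nearly identical copies, so their probe sets may share signal and are not independent. Dnajb1, the heat-inducible partner of cytosolic Hsp70, had signals of 234, 19.3 and 21.0, which made it 12.1-fold lower at 12 h and 11.1-fold lower at 24 h than at 0 h. For these genes the 0 h signal exceeded both cultured ones. Genes with a heat shock element core in a window ranged from a log2 ratio of -2.45 (Hspa1a) to 0.53 (Hspd1) at 24 h over 0 h, with Hspb1 at the floor. Dnajb1, at -3.48, had no match in its windows. Hspa8, the constitutive Hsp70, had signals of 1048, 740.1 and 1031, and Hsph1, an Hsp110 protein, 192, 194 and 228; neither reached 2-fold in any comparison.

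Other Hsp110-family genes were higher on both later arrays. Hspa4 had signals of 326, 2507 and 2101 by its brightest probe set, 7.69-fold higher at 12 h and 6.44-fold higher at 24 h than at 0 h. Its other measured sets gave log2 ratios of 3.21, 2.39 and -1.11 for 12 h over 0 h and of 0.58, 0.95 and -2.08 for 24 h over 0 h, so that at 24 h over 0 h 1 of its 4 measured sets was 2-fold higher and the mean over all sets gave 0.43. Hspa4l, its close relative, had signals of 20.02, 94.2 and 136 and was 4.71-fold and 6.81-fold higher. Hsp90aa1, the inducible cytosolic Hsp90, had signals of 1291, 2327 and 1458 and was 1.80-fold higher at 12 h than at 0 h. Cdc37, which hands kinases to Hsp90, had signals of 431, 10.9 (at the floor) and 217, at least 31.9-fold lower at 12 h relative to 0 h and at least 16.0-fold higher at 24 h relative to 12 h. That single probe set was low on the 12 h array alone.

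Co-chaperones and folding factors of the cytosol and mitochondria outside the symbol rule had 4 of 19 genes higher by 2-fold or more and 7 lower by 2-fold or more at 12 h than at 0 h, with a median log2 ratio of -0.80; the shares of 21.1% and 36.8% stand beside 17.7% and 27.3% of all genes. Bag3, a stress-induced partner of Hsp70, had signals of 16.8, 235 and 147 and was 14.02-fold higher at 12 h than at 0 h, opposite to Hspa1a and Dnajb1. Stub1, an Hsp70-bound ubiquitin ligase, was 8.04-fold lower and Stip1, which links Hsp70 to Hsp90, at least 6.03-fold lower. The prefoldin subunits Pfdn2 and Vbp1, which pass actin and tubulin to CCT, were 4.39-fold and 3.77-fold higher, and Vbp1 was then 5.91-fold lower at 24 h than at 12 h. The other listed prefoldin subunits did not rise: Pfdn5 (22.3, 17.6 and 15.5) had a log2 ratio of -0.35 at 12 h over 0 h, and Pfdn1 was at the floor on all arrays. At 24 h against 12 h, 3 of 18 were higher and 2 lower (16.7% and 11.1%, near the 18.8% and 12% of all genes), and at 24 h against 0 h 2 of 19 were higher and 5 lower (10.5% and 26.3%, beside 14.5% and 17.7%).

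Among mitochondrial chaperones, Hspa9, the Hsp70 of the matrix, had signals of 255, 1881 and 3152. It was 7.36-fold higher at 12 h and 12.3-fold higher at 24 h than at 0 h, the largest upward ratio of any of the 63 genes at 24 h over 0 h, and it had 1 probe set. The chaperonin Hspd1 had signals of 914, 2059 and 1318 by its brightest probe set, 2.25-fold higher at 12 h relative to 0 h, and its lid Hspe1 1291, 1346 and 725. The other Hspd1 set ran 25.2, 26.8 and 47.7, a log2 ratio of 0.09 at 12 h over 0 h, near the 0.06 of its neighbour Hspe1. The Hspd1 difference was under 2-fold with the mean over its sets (log2 0.63), under quantile normalization (0.62) and unscaled (0.48). Dnaja3, the J-domain partner of Hspa9, had signals of 98.1, 77.7 and 159 and was 2.05-fold higher at 24 h relative to 12 h, and Dnajc15 went to the floor at 24 h, at least 2.81-fold lower than at 12 h. Grpel1, the exchange factor for Hspa9, and the matrix protease subunit Clpp, neither of them in the symbol rule, differed too: Grpel1 was at least 5.35-fold and Clpp 4.64-fold lower at 12 h than at 0 h.

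The 8 genes of the CCT ring showed no common course at 12 h although their proteins form 1 complex. Cct4 had signals of 479, 1167 and 460.1, so it was 2.43-fold higher at 12 h relative to 0 h and 2.54-fold lower at 24 h than at 12 h. Cct2 (88.7, 165 and 83.4) and Cct6a (192, 342 and 184) had the same order with differences under 2-fold. The Cct6a set used carries a suffix for possible cross-hybridization, and its other set was at the floor. Cct7 went the opposite way with signals of 531, 227 and 409.8, and was 2.34-fold lower at 12 h than at 0 h. Cct3 had signals of 306, 123 and 180.2 and was 2.49-fold lower at 12 h than at 0 h, but its other sets gave log2 ratios of -3.89 and 0.62. Cct5 (974, 695 and 529.7 by its brightest set) and Cct8 (338, 267 and 209.9) were lower at each later time. The other Cct5 set ran 80.5, 92.6 and 59.2. At 24 h over 0 h the brightest sets of all 8 had log2 ratios between -0.88 and -0.06. Among all 6392 genes with a ratio, 3420 were below 0. None of the 8 was 2-fold, beside 14.5% higher and 17.7% lower among all genes. The value of the testis-type subunit Cct6b was a bound, and the signs for Cct2, Cct4 and Cct6a depended on the scaling. The other Cct3 sets, both with suffixes for possible cross-hybridization, gave 0.80 and -3.16. Tcp1, the ring's remaining common subunit and not covered by the symbol rule, had signals of 93.4, 91.4 and 115.

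The remaining J-domain proteins numbered 20, of which 18 had a ratio at 12 h over 0 h (median -0.06). Of these 18, 2 (11.1%) were higher and 3 (16.7%) lower by 2-fold or more, beside 17.7% and 27.3% of all genes. Dnajb6, which keeps aggregation-prone proteins soluble, had signals of 361, 1199 and 459.6 and was 3.32-fold higher at 12 h relative to 0 h and 2.61-fold lower at 24 h than at 12 h, whereas its other set gave log2 ratios of -0.61 and 0.93. The other gene that was higher at 12 h was Dnajb3 (2.36-fold), whose set carries a suffix for possible cross-hybridization. Dnajc17 had signals of 67.1, 5.78 (at the floor) and 47.3, at least 4.96-fold lower at 12 h relative to 0 h and at least 3.50-fold higher at 24 h relative to 12 h. Dnajc11 was at least 2.08-fold lower at both later times than at 0 h. Dnaja1, a partner of cytosolic Hsp70, had signals of 465, 559 and 297 and no 2-fold difference. Of the small heat shock genes, Hspb8, a partner of Bag3, had signals of 144, 60.3 and 64.5 and was 2.38-fold lower at 12 h than at 0 h. Hspb11, known in mice as the intraflagellar transport gene Ift25 and not as a heat shock chaperone, had signals of 24.3, 168 and 83.9 and was 6.91-fold higher at 12 h than at 0 h.

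**Figure D4:**
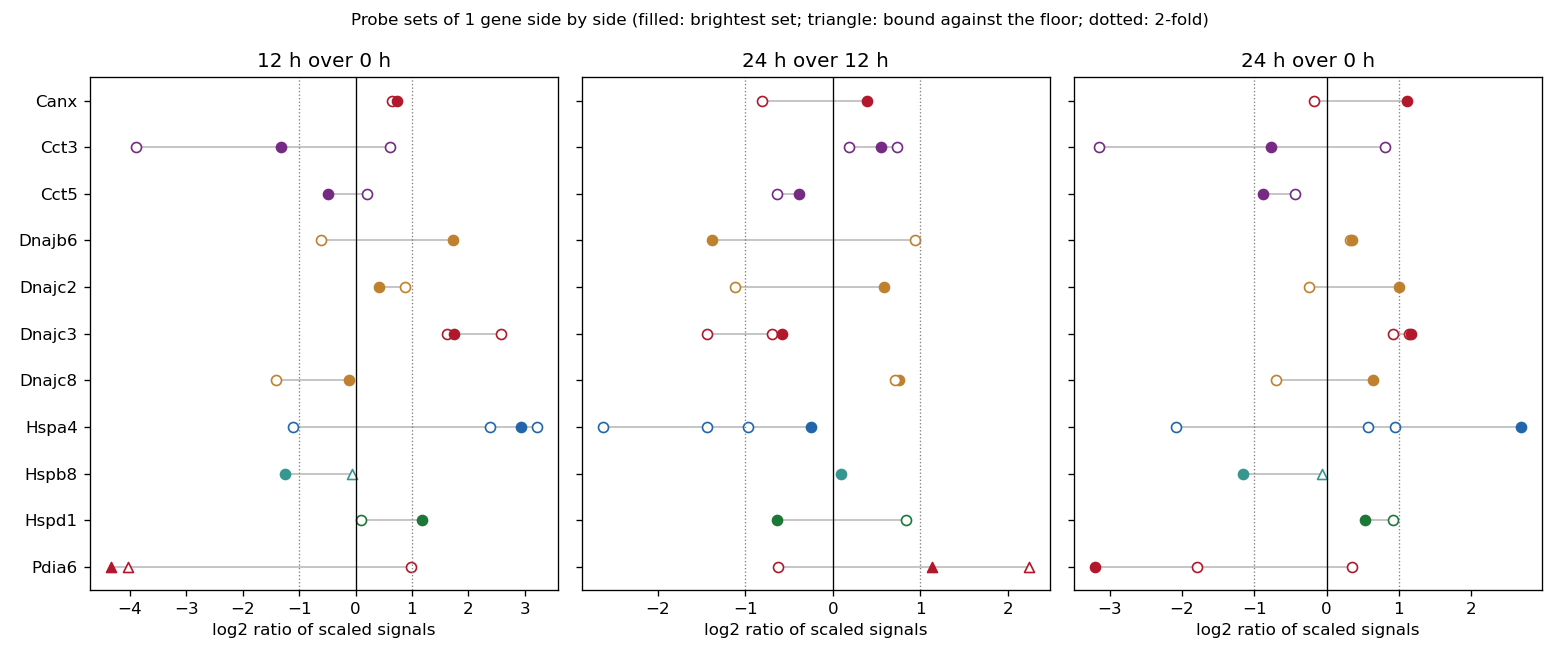
Log2 ratios of scaled signals from each probe set of the 11 genes with more than 1 set above the floor, in the 3 comparisons; filled symbols are the brightest set, open symbols the others, triangles are bounds, and grey lines join sets of 1 gene. The 3 sets of Dnajc3, all but the brightest carrying a suffix for possible cross-hybridization, lie together at 12 h over 0 h. Those of Hspa4, Cct3 and Pdia6 lie on both sides of 0.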

How the data were processed

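RNA from 3 samples was amplified with the RiboAmp kit, labelled with reagents from ENZO and measured on Affymetrix arrays, per the labels' protocols, which list the programs Microarray Suite 5.0 and GeneSpring 6.0. The deposited values are 1 linear intensity per probe set, and the sources used here do not state whether the authors scaled them. Of 12488 probe sets, 66 are controls, 10833 name 1 gene, 396 several and 1193 none, by GEO's platform annotation; of the 10833, 10817 matched a RefSeq gene (GRCm38.p6).

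Without control probe sets, the arrays were brought to 1 shared trimmed mean (2% trim, factors 0.676, 1.09 and 1.36 at 0, 12 and 24 h), floored at the pooled 40th percentile and put on the log2 scale. No ratio was formed where both arrays were at the floor. Signals on all arrays are given for genes with a ratio or bound of at least 4-fold and for a list of canonical chaperones; genes named outside this rule (such as Dnajb6, Dnajb3, Dnajc11, Hspb8 and Dnajc10) complete a count or a role and were chosen after their values were seen. The symbol rule, roles, lists, motifs and marker genes were chosen with earlier results of these data known. No test was run on single arrays, and precision is limited by the number of arrays. Ratio calculation was tested on simulated data. The alternatives were no scaling (values as deposited), quantile normalization, median centring, a floor at the 20th or the 60th percentile, the mean over probe sets, and removal of probe sets with cross-hybridization suffixes. Python 3.11.15, numpy 2.4.6, pandas 2.3.3 and matplotlib 3.10.9 were used.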

Additional observations from a re-analysis of the deposited data

How the results depend on the processing

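Scaling set the balance of higher and lower genes. The median log2 ratio of all genes in the 3 comparisons (12 h over 0 h, then 24 h over 12 h, then 24 h over 0 h) was -0.21, 0.17 and -0.08 as reported, -0.83, -0.12 and -0.98 unscaled, 0.07, 0.01 and 0.03 under quantile normalization and 0.06, -0.01 and 0.04 under median centring. The chaperone median less the median of all genes was 0.25 for 12 h over 0 h (0.18 to 0.35 across 7 alternatives), -0.27 for 24 h over 12 h (-0.41 to -0.12) and -0.03 for 24 h over 0 h (-0.13 to 0.02).

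For 12 h over 0 h the chaperone median was -0.63 unscaled, 0.24 under quantile normalization and 0.35 under median centring, and 23 and 7 genes were lower by 2-fold or more under deposited values and median centring. For 24 h over 12 h the median was -0.53 with deposited values, -0.29 after median centring, -0.22 with the mean over probe sets, 0.058 with the floor at the 20th percentile and 0.031 without suffixed sets. The count of genes higher by 2-fold or more was then 2 with deposited values, 7 with the lower floor and 2 with the floor at the 60th percentile, and that of lower genes 17 both with deposited values and after median centring. For 24 h over 0 h the median was -1.06 with deposited values and 0.011 after median centring; 3 genes were higher with deposited values and 3 with the mean over probe sets, and 33 were lower with deposited values. The cause was not tested. The other 43 values of these counts and medians lay within 1.5 times or 0.1 of those reported. For genes named by the rule, all 41 ratios of at least 2-fold kept their sign under every alternative that gave a value, and 41 of 61 smaller ratios did. Of the 41, 27 stayed at 2-fold or more throughout and 14 did not. Those under 2-fold in some alternative were, at 12 h over 0 h, Cct4, Cct7, Dnajc17, Hspd1, Pdia3 and Pdia4, at 24 h over 12 h, Ddit3 (-0.03 with the floor at the 60th percentile), Dnajc17 and Pdia6, and, at 24 h over 0 h, Canx (0.12 unscaled), Dnajc1, Dnajc3 (0.17 unscaled), Hspa4 (0.43 with the mean over probe sets) and Hspb11.

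Probe set signal near the floor limits Ddit3, Cct6b, Pdia5, Dnajc21 and Dnajb2, among others. It also limits the size of some large folds, as Dnajb1 had 19.3 and 21.0 at 12 and 24 h, and Hspa4l 20.02 and Bag3 16.8 at 0 h. With the floor at the 60th percentile, the log2 ratio at 12 h over 0 h went from -3.60 to -2.74 for Dnajb1. That of Hspa4l went from 2.24 to 1.42. No paired analysis was possible because each time point has 1 array.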

Other observations

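A pair of probe sets named both Dnajc19, a J-domain protein of the mitochondrial import motor, and its pseudogene, and were left out of the 63 genes for that reason. The brighter of these 2 probe sets had scaled signals of 40.03, 46.6 and 32.0 on the 0, 12 and 24 h arrays, and the other, which carries a suffix for possible cross-hybridization, 6.15, 20.6 and 32.8.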
